A study of Mus musculus with 4 samples.

Results

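Alpha and beta tubulins are the paired subunits of microtubules, and mammals carry several genes, called isotypes, for each. The 10 isotype genes considered were Tuba1a, Tuba1b, Tuba1c and Tuba4a for alpha tubulin and Tubb2a, Tubb2b, Tubb3, Tubb4b, Tubb5 and Tubb6 for beta tubulin. Members were the array probe sets that the platform annotation assigns to 1 of these symbols alone, which gave 17 probe sets for 8 genes, of 12394 genes with such a probe set on the array. Tuba1b and Tuba1c had 0, since their probe sets are also assigned to pseudogenes. The family as a whole was selected on earlier results of these arrays, with the log2 change of Tubb2a between the groups known. Changes of members between the groups are therefore given as descriptions without a test.

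RNA came from Py-4-1, a mouse hemangioendothelioma line, derived from an endothelial tumour, and was read on 1-colour Affymetrix arrays. The study set 2 clones transfected with pcDNA/Prox1 and labelled as stable expressers of Prox1, the transcription factor of lymphatic endothelial identity, against 2 clones transfected with pcDNA. Each clone gave 1 array of total RNA from a nearly confluent dish, with no treatment or time course named in the labels. Clone, culture, RNA and array handling therefore vary together within a group, and with 2 arrays a group the exact permutation test of a single value cannot give a p under 0.333.

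Every column had a trimmed mean of 500, and median intensities ran from 173 to 179.7 in the Prox1-labelled clones and were 163 and 177 in the pcDNA clones. The probe set of Prox1 read 62.4 and 44.3 in Prox1-labelled clones 1 and 2, against 52.1 and 60.5 in pcDNA clones 1 and 2, so its intensity was not higher in the clones labelled as expressing it (log2 change -0.047 ± 0.20, SE, limma without the intensity filter, adjusted p = 0.963). The sources used here do not say whether the transfected sequence holds that probe set, so group names follow the labels. All 8 endothelial markers listed (Pecam1, Cdh5, Kdr, Tek, Tie1, Emcn, Esam and Eng) exceeded, on all 4 arrays, the highest of the array's 27 control probe sets against Bacillus genes, which serve here as a background level. Of the markers of other cells, 1 of 5 epithelial (Krt8), 1 of 4 leukocyte (Csf1r), 0 of 6 neuronal and 2 of 6 smooth muscle and fibroblast markers (Acta2 and Des) did so. Summed intensities of the endothelial list were 36590.1 and 34029 in Prox1-labelled clones and 26478 and 33134 in pcDNA clones. Each of the 8 markers had a log2 change above 0 (median 0.25), as did 3539 of all 6956 genes tested. Without overlap between the groups 4 of the 8 were higher in Prox1-labelled clones, as were 1617 of all 6956 genes tested. By limma 0 of the 8 passed an adjusted p of 0.05, where 0.115% of all genes tested passed. Sums of the neuronal list were 244 and 249 in Prox1-labelled clones and 269 and 157 in pcDNA clones. The part of either in the tubulin values was not tested.

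As background, one alpha and one beta tubulin form a dimer that adds to and leaves microtubule ends, which carry transport, cell shape, migration and the mitotic spindle. Isotypes are closely similar proteins that differ chiefly in their acidic carboxyl-terminal tails, where enzymes attach and remove amino acids. Cells also adjust tubulin mRNA to demand: when free dimers are abundant, ribosomes translating tubulin are recognised by TTC5 and the mRNA is degraded, as described in human cells. Tubb5 and Tubb4b are widely expressed beta isotypes, Tuba1b is a widely expressed alpha isotype, Tubb2a, Tubb2b and Tubb3 are abundant in neurons, and Tuba4a encodes an alpha tubulin whose last residue is not the usual tyrosine.

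The promoters of Tubb2a and Tuba4a, the genes with the lowest log2 changes by their brightest probe sets, are shown beside those of Tubb4b and Tubb5, whose brightest probe sets overlapped between the groups. Each is the 250 bases before the start in RefSeq's table of assembly GRCm38.p6, 5′ to 3′ on the gene's strand, at chr13:34078009-34078258 (minus strand), chr1:75219295-75219544 (minus), chr2:25224703-25224952 (minus) and chr17:35838302-35838551 (minus). Capitals mark 4 motifs searched on both strands, the CCAAT box, the GC box GGGCGG, the TATA box core TATAA and the heat shock element core GAANNTTC. No match overlaps another in these 4 windows.
Tubb2a: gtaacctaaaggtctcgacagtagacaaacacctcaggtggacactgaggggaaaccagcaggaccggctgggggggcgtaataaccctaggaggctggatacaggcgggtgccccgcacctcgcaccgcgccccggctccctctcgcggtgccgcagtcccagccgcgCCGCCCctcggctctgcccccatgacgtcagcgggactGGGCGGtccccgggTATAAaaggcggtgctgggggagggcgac
Tuba4a: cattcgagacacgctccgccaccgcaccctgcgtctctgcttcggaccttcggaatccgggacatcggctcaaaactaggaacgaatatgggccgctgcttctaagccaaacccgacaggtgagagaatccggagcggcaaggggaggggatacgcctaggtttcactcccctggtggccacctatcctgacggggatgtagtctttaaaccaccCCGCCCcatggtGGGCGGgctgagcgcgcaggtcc
Tubb4b: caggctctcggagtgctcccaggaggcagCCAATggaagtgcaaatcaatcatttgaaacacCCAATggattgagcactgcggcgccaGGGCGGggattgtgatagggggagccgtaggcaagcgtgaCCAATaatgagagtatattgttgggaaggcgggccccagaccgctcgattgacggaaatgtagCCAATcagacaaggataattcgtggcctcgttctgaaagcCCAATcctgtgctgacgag
Tubb5: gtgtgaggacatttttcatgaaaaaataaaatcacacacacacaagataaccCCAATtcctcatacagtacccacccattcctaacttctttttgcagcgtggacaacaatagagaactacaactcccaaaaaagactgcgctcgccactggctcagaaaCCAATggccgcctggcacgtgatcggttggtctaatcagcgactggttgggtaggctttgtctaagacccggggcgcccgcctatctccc

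The Tubb2a window held TATAA with its last base 25 bases before the start, 2 copies of GGGCGG and 0 of CCAAT. The Tuba4a window held 2 copies of GGGCGG, 0 of TATAA and 0 of CCAAT. Tubb4b held 5 copies of CCAAT and 1 of GGGCGG, and Tubb5 held 2 copies of CCAAT and 0 of GGGCGG. Among windows not shown, Tuba1b held 0 copies of CCAAT, 2 of GGGCGG and 0 of TATAA, and Tuba1a held 1 of each. Tuba1c held 1 copy of CCAAT and 0 of the other 2, and Tubb3 held 1 of CCAAT, 2 of GGGCGG and 2 of TATAA. Of the 8 listed genes with a window in the table, 5 held CCAAT, 6 GGGCGG, 3 TATAA and 0 GAANNTTC. Among all 32851 windows of that length the shares were 33.8% for CCAAT, 32.7% for GGGCGG, 22.8% for TATAA and 6.69% for GAANNTTC. These matches are letters in a window and were not tested as binding sites.

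Of the 17 probe sets, 11 exceeded the highest Bacillus control on all 4 arrays and 2 did so on none. Intensities are on the MAS5 scale and are compared between arrays for 1 probe set at a time, since probe sets differ in brightness for reasons other than transcript level. In RNA from whole cultures, fewer cells that carry a transcript and less of it per cell cannot be told apart. A filter on dim signals, which asked for an intensity above the array median on at least 2 of 4 arrays, passed 11 probe sets of 6 genes, and these are called tested below. Among them is 1456078_x_at of Tubb4b, which passed through the pcDNA clones alone, so that it had to be lower in the Prox1-labelled clones. Log2 changes are of intensity + 47, which understates changes of dim probe sets, and errors are standard errors (SE) of a limma fit across all probe sets.

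**Figure D1:**
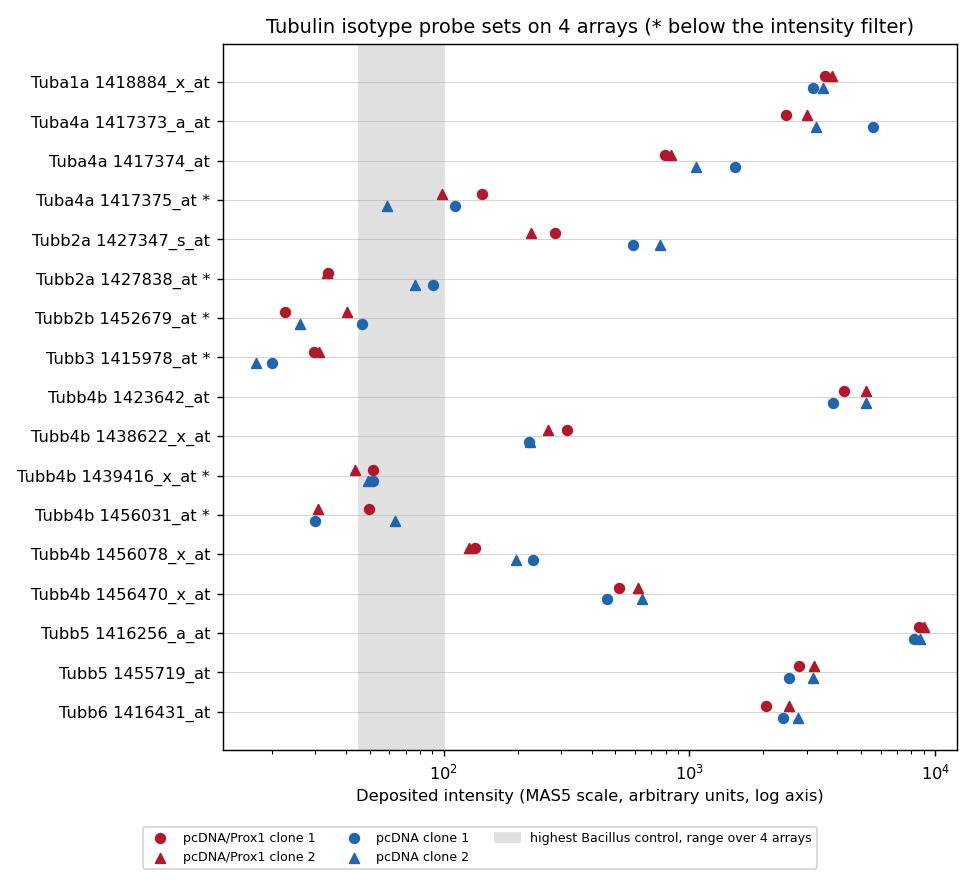
Intensity of each of the 17 tubulin isotype probe sets on each array, on a log axis, with Prox1-labelled clones in red and pcDNA clones in blue, circles for clone 1 and triangles for clone 2. The grey band spans the highest Bacillus control of the 4 arrays (45.3 to 101), and the red and blue symbols of 1427347_s_at (Tubb2a) stand apart while those of Tubb5 overlap.

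Tubb2a gave the lowest log2 change among the members. Its brighter probe set, 1427347_s_at, read 285 and 227 in Prox1-labelled clones 1 and 2, against 590.1 and 758 in pcDNA clones 1 and 2. Both Prox1-labelled clones lay below both pcDNA clones, and means were 256 ± 40.6 in Prox1-labelled clones and 674 ± 118 in pcDNA clones (SD, n = 2 each). The log2 change was -1.25 ± 0.22 (SE), a level 2.37-fold lower on the log2(intensity + 47) scale and a linear ratio of pcDNA over Prox1-labelled means of 2.63. Leaving out each clone in turn gave changes from -1.42 to -1.08.

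The other Tubb2a probe set, 1427838_at, showed the same order at dim signals, with 33.9 and 33.4 in Prox1-labelled clones and 90.3 and 76.3 in pcDNA clones. It lay below the filter, and above the highest Bacillus control in pcDNA clone 1 alone. That control was 45.3 in pcDNA clone 1, against 101 in pcDNA clone 2 and 88.4 and 97.5 in Prox1-labelled clones. The log2 change of 1427838_at was -0.69 ± 0.19 (SE, fit without the filter), and -1.30 with no pseudocount. The suffix _s_at of the brighter probe set marks a set that can match several transcripts of similar sequence, and Tubb2b is a close paralogue on the same chromosome. The probe set of Tubb2b itself, 1452679_at, read 22.6 and 40.5 in Prox1-labelled clones and 46.5 and 26.0 in pcDNA clones. It exceeded the highest Bacillus control in pcDNA clone 1 alone, the array where that control was lowest. The groups overlapped for Tubb2b (log2 change -0.082 ± 0.21).

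Tuba4a was also lower in both Prox1-labelled clones, by its pair of brighter probe sets. Probe set 1417373_a_at read 2462 and 3002 in Prox1-labelled clones and 5583 and 3262 in pcDNA clones, a log2 change of -0.64 ± 0.26 (SE). Probe set 1417374_at read 798 and 844 in Prox1-labelled clones and 1535 and 1062 in pcDNA clones, a change of -0.61 ± 0.22. In both, pcDNA clone 1 stood above pcDNA clone 2, which lay nearer to the Prox1-labelled clones. Without pcDNA clone 1 the changes were -0.26 and -0.35, and without pcDNA clone 2 they were -1.03 and -0.87. The remaining probe set, 1417375_at, was dim, with 144 and 98.7 in Prox1-labelled clones and 111 and 58.7 in pcDNA clones. Its groups overlapped and its log2 change had the opposite sign (0.37 ± 0.30, fit without the filter).

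The other alpha isotype with a probe set of its own was Tuba1a, an isotype abundant in developing brain. Its probe set 1418884_x_at read 3563 and 3782 in Prox1-labelled clones and 3171 and 3493 in pcDNA clones. Both Prox1-labelled clones lay above both pcDNA clones by a small margin, with a log2 change of 0.14 ± 0.17 (SE) that was smaller than its error. The suffix _x_at marks a set whose probes can match unrelated transcripts.

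Probe sets shared with pseudogenes, which are not members, give the other alpha isotypes at best jointly. The one assigned to Tuba1b and the pseudogene Gm5620 (1423846_x_at) read 16356 and 16449 in Prox1-labelled clones and 17703 and 18669 in pcDNA clones. Both Prox1-labelled clones lay below both pcDNA clones, with a log2 change of -0.15 ± 0.15 (SE), and the suffix _x_at sets the same limit as for Tuba1a. The pair assigned to Tuba1c and the pseudogene Gm6682 read 257 and 407 in Prox1-labelled clones and 202 and 320.4 in pcDNA clones (1416128_at), and 1595 and 1831 in Prox1-labelled clones and 1610.4 and 1710.2 in pcDNA clones (1448232_x_at). Groups overlapped for both, with changes of 0.29 ± 0.27 and 0.041 ± 0.18. A probe set assigned to Tuba1a and Gm6682 (1433584_at) read 117 and 126 in Prox1-labelled clones and 110.5 and 177 in pcDNA clones, and overlapped too.

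Tubb5, the class I beta tubulin of most cells, was close to level across the arrays. Probe set 1416256_a_at read 8582 and 8999 in Prox1-labelled clones and 8229 and 8627 in pcDNA clones, and 1455719_at read 2781 and 3199.6 in Prox1-labelled clones and 2545 and 3172 in pcDNA clones. Groups overlapped for both, with log2 changes of 0.060 ± 0.16 and 0.069 ± 0.19 (SE).

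Tubb4b, the class IVb beta tubulin, had 6 probe sets, and they did not give 1 answer. The brightest, 1423642_at, read 4261 and 5227 in Prox1-labelled clones and 3837 and 5225 in pcDNA clones, with overlapping groups and a log2 change of 0.075 ± 0.21 (SE). Probe set 1456470_x_at overlapped as well, with 519 and 619 in Prox1-labelled clones against 461 and 639.9 in pcDNA clones (0.056 ± 0.22). By contrast, 1438622_x_at was higher in both Prox1-labelled clones, at 318 and 266 against 222 and 224 in pcDNA clones (0.32 ± 0.21). Probe set 1456078_x_at was lower in both, at 134 and 127 against 232 and 196 in pcDNA clones (-0.55 ± 0.22). The other two, 1439416_x_at and 1456031_at, were dim, from 30.9 to 51.5 in Prox1-labelled clones and from 30.1 to 63.4 in pcDNA clones, and overlapped. The sets that disagree with the brightest carry the suffix _x_at, and which transcripts they match was not tested.

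Tubb6, the class V beta tubulin, read 2040.1 and 2547 in Prox1-labelled clones and 2413 and 2772 in pcDNA clones (1416431_at). The groups overlapped, with a log2 change of -0.18 ± 0.19 (SE). Tubb3, the class III isotype used as a marker of neurons, lay under the highest Bacillus control on all 4 arrays, at 29.7 and 31.2 in Prox1-labelled clones and 20.1 and 17.3 in pcDNA clones (1415978_at). Its groups did not overlap, but at this signal its log2 change ran from 0.086 to 0.71 with the choice of pseudocount, and the size is uncertain.

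**Figure D2:**
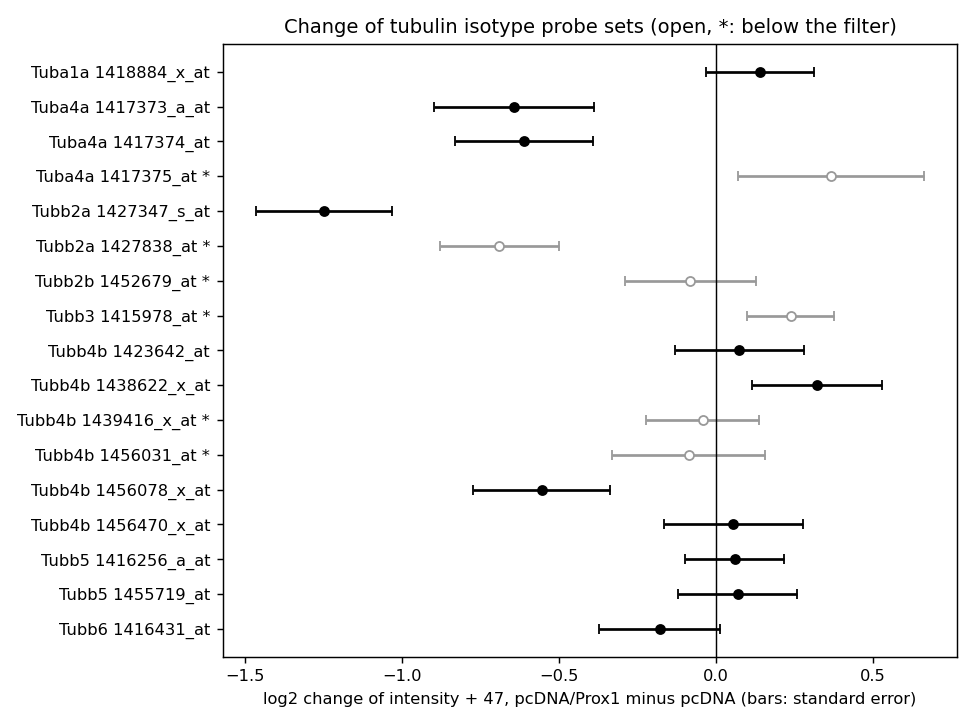
Log2 change of intensity + 47, Prox1-labelled minus pcDNA clones, for each of the 17 probe sets, with bars of 1 standard error and open grey symbols for the 6 below the filter. Both Tubb2a sets and the brighter pair of Tuba4a lie left of 0, while the sets of Tubb4b lie on both sides, from -0.55 to 0.32.

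Over the 11 tested probe sets, log2 changes were negative in 5 and positive in 6, and their median was 0.056, beside 0.012 over all 11656 probe sets tested. Both Prox1-labelled clones lay below both pcDNA clones in 4 of the 11, where 22.3% of all probe sets tested did so, and above both in 2, where 23.9% did so. By limma's adjusted p 0 of the 11 passed 0.05, where 0.103% of all probe sets tested passed. With the clone number as a replicate block 1 of the 11 was called, beside 110 of all 11656. Without pcDNA clone 1 the fit called 1 of the 11, and 133 of all 11656, and without pcDNA clone 2 it called 3, and 1150 of all. These counts are a description and nothing is read from them, since the family was chosen with this comparison known. Under quantile normalization and median centring the number with a negative change was also 5, and it was 8 without pcDNA clone 1 or without Prox1-labelled clone 2.

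Clones of the same group also differed in their tubulin values. Clone 2 minus clone 1 had a median absolute log2 difference over the 11 tested sets of 0.22 among Prox1-labelled clones and 0.31 among pcDNA clones, beside 0.16 and 0.26 over all probe sets tested. The largest single difference was that of Tuba4a 1417373_a_at, at 0.28 between Prox1-labelled clones and -0.77 between pcDNA clones. Both Tubb5 sets, Tubb6, Tuba1a, and the Tubb4b sets 1423642_at and 1456470_x_at were higher in clone 2 than in clone 1 in both groups, which makes 6 of 11, beside 24.8% of all probe sets tested. For Tubb2a 1427347_s_at the clones went apart, with -0.27 between Prox1-labelled clones and 0.34 between pcDNA clones, both smaller than its change between the groups. That change was known when the family was chosen, so this order of sizes is a description and no test.

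**Figure D3:**
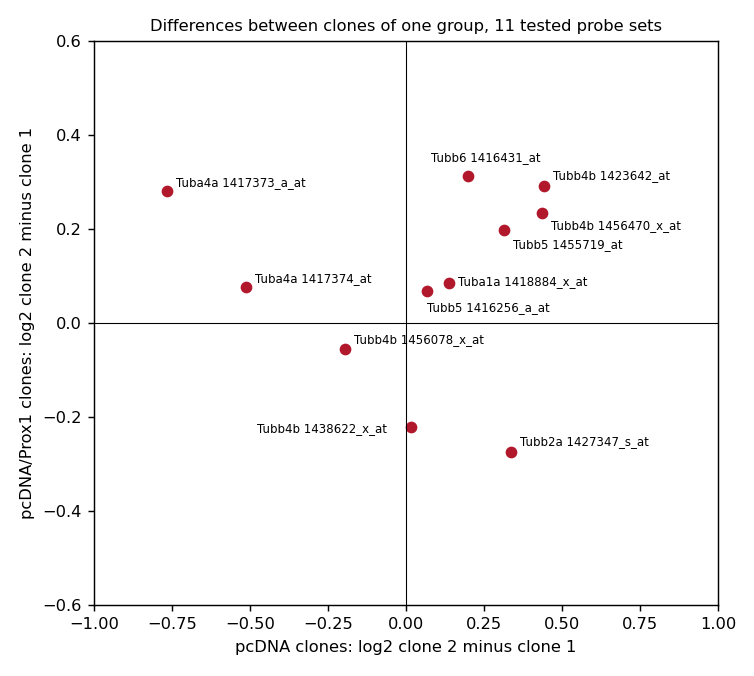
Log2 difference of clone 2 minus clone 1 among Prox1-labelled clones (vertical axis) and among pcDNA clones (horizontal axis) for each of the 11 tested probe sets. The 2 sets of Tuba4a lie at the left, at -0.77 and -0.51 among pcDNA clones, and 6 sets lie in the upper right, above 0 on both axes.

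Genes whose values over the 4 arrays lay closest to those of Tubb2a 1427347_s_at were ranked among 6888 genes outside the lists by Euclidean distance of log2 values, each centred on its own mean. The closest 5 were Hacd1 (distance 0.20), Glyat (0.25), Wdr55 (0.25), Csn3 (0.26) and Rpl22l1 (0.27). Glyat, at 86.1 and 63.8 in Prox1-labelled clones and 180 and 216 in pcDNA clones, passed the filter through the pcDNA clones alone. It therefore had to be lower in the Prox1-labelled clones, and it exceeded the highest Bacillus control on 2 arrays. Hacd1, an enzyme of very-long-chain fatty acid synthesis, read 263 and 264 in Prox1-labelled clones and 588 and 777 in pcDNA clones. Rpl22l1, a ribosomal protein paralogue, read 1625 and 1709 in Prox1-labelled clones and 3418 and 4079 in pcDNA clones. In all, 13 genes lay within a distance of 0.5, while 267 had a Pearson correlation over 0.95 with Tubb2a across the 4 arrays. With 4 points such likeness is a description.

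Other genes of the microtubule system were tested in the same fit, with 1 probe set a gene. Their lists, too, were drawn up with earlier results of these arrays known. Over all 6956 genes 0.115% passed an adjusted p of 0.05 by limma, and 0 passed in each list below. By limma's unadjusted p, 14.4% of all genes tested lay under 0.05. In the lists these were 1 of 8 tubulin-modifying enzymes (Sirt2) and 2 of 15 binding and dynamics genes (Map1b and Kif2c). They were 0 of 20 folding factors, 0 of 6 gamma-tubulin complex genes and 0 of the remaining lists. Of the remaining tubulins (10 listed, 6 with a probe set) 1 was above the filter, Tubg1, which encodes the gamma tubulin that seeds microtubules (log2 change 0.18 ± 0.22, SE, limma adjusted p = 0.779). Tubg1 turned to -0.095 without pcDNA clone 1. Below the filter, Tuba8, a further alpha isotype named after its values were seen, read 39.5 and 42.8 in Prox1-labelled clones and 108 and 145 in pcDNA clones. Its log2 change was -0.97 ± 0.22 (SE, limma without the filter, adjusted p = 0.367), and it exceeded the highest Bacillus control in the pcDNA clones alone.

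Folding factors bring new tubulin to the dimer: prefoldin hands it to the CCT chaperonin, and cofactors A to E with the GTPase Arl2 join the subunits. All 20 of these with a probe set (21 listed) were tested, 14 had a negative and 6 a positive log2 change, and 0 passed. Their median was -0.076, beside 0.0074 over all genes tested. Arl2 read 1287 and 1259.7 in Prox1-labelled clones and 1597 and 1751 in pcDNA clones, without overlap (-0.38 ± 0.18, adjusted p = 0.373). The chaperonin subunit gene Cct5 read 4727 and 5344 in Prox1-labelled clones and 6176 and 6307 in pcDNA clones (-0.31 ± 0.17, adjusted p = 0.430). For the prefoldin gene Vbp1, 1 array stood apart, with 3922 and 4737 in Prox1-labelled clones and 4322 and 1975 in pcDNA clones. Its log2 change of 0.55 (adjusted p = 0.466) was -0.0039 without pcDNA clone 2.

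Ttc5, the factor that recognises ribosomes making tubulin, was the 1 of 3 listed autoregulation genes with a probe set of its own. It read 310.2 and 281 in Prox1-labelled clones and 48.0 and 338 in pcDNA clones, so that pcDNA clone 1 stood apart from the other 3 arrays. The log2 change was 0.84 ± 0.52 (SE, limma adjusted p = 0.502), and it was -0.17 without pcDNA clone 1 and 1.85 without pcDNA clone 2.

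Of 26 genes of tubulin-modifying enzymes and their partners, 12 had a probe set and 8 were tested, 4 higher and 4 lower in log2 level, with a median change of 0.017 and 0 past the threshold. Sirt2, a tubulin deacetylase, read 704 and 584 in Prox1-labelled clones and 409 and 348 in pcDNA clones (0.70 ± 0.20, SE, limma adjusted p = 0.197). Ttl, the ligase that puts the last tyrosine back on alpha tubulin, read 394 and 381 in Prox1-labelled clones and 499 and 584 in pcDNA clones (-0.43 ± 0.20, adjusted p = 0.357). The other tested Ttl probe set (1451630_at) overlapped between the groups, with a change of -0.11. Tpgs2, a subunit of the tubulin polyglutamylase complex, gave -0.41 ± 0.22 (adjusted p = 0.427).

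Among proteins that bind microtubules or set their dynamics, 15 of 27 genes with a probe set (30 listed) were tested. Positive changes were seen in 5 and negative in 10, with a median of -0.065 and 0 past the threshold. That median was 0.039 without the filter and 0.098 with a filter at the 75th percentile. Map1b, a microtubule-stabilising protein, read 157 and 165 in Prox1-labelled clones and 313 and 251 in pcDNA clones (-0.66 ± 0.22, SE, limma adjusted p = 0.233). It passed the filter through the pcDNA clones alone, so that it had to be lower in the Prox1-labelled clones. Kif2c, a mitotic kinesin that takes microtubule ends apart, read 599 and 503 in Prox1-labelled clones and 286 and 436 in pcDNA clones (0.57 ± 0.23, adjusted p = 0.312). The change of Kif2c was 0.30 without pcDNA clone 1, and 0.84 without pcDNA clone 2, where it passed the test. Its other tested sets gave 1.35 (1437611_x_at) and 1.09 (1449060_at), and a dim set below the filter gave -0.28 (1432392_at). In both of those tested sets pcDNA clone 1 was the lowest array, at 91.8 and 119, against 503 and 342 in pcDNA clone 2. Mapre2, an end-binding protein, gave 0.37 ± 0.20 (adjusted p = 0.434). Its dimmer probe sets, below the filter, gave -0.66 (1426244_at), 0.13 (1451989_a_at) and -0.24 (1451990_at).

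The gamma-tubulin complex, the template on which microtubules start, had 6 tested genes of 7 with a probe set (9 listed), 4 with a positive and 2 with a negative change, a median of 0.095 and 0 past the threshold. Its subunit gene Tubgcp2 read 1547 and 1333 in Prox1-labelled clones and 866 and 1333 in pcDNA clones (0.40 ± 0.23, SE, limma adjusted p = 0.471). Without pcDNA clone 1 it stood at 0.10. Tubgcp5 gave 0.30 ± 0.21 (adjusted p = 0.564). Nedd1, which anchors the complex, gave 0.17 ± 0.19 (adjusted p = 0.749) by its brighter probe set and -0.32 by the other, so its direction is not settled.

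**Figure D4:**
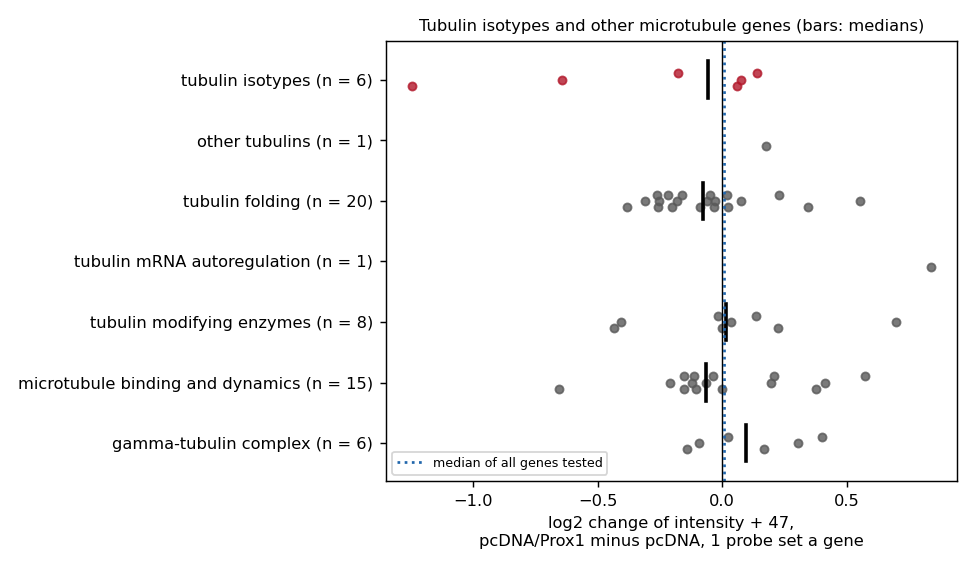
Log2 change of intensity + 47, Prox1-labelled minus pcDNA clones, for the tested tubulin isotypes (red) and the tested genes of 6 microtubule lists (grey), 1 point a gene at its brightest probe set, with bars at list medians and the median of all genes tested dotted. Tubb2a at -1.25 is the leftmost point, and the medians of the 4 lists with more than 1 tested gene lie between -0.076 and 0.095.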

How the data were processed

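Expression was measured on 4 arrays of Py-4-1 clones, 2 labelled pcDNA/Prox1 and 2 pcDNA. Values are deposited probe set intensities on a linear scale, and per the submitters' processing notes they were made with MAS5, with no version named in the sources used here. Of 22690 probe sets, 64 Affymetrix controls were left out. Genes were named from the platform annotation, for the 20380 other probe sets with 1 symbol. Values were analysed as log2(intensity + 47), 47 being the 25th percentile of all values. Probe sets above the array median on at least 2 of 4 arrays (11656) were fitted with limma 3.58.1 in R 4.3.3 (lmFit, eBayes with an intensity trend, two-sided), with Benjamini-Hochberg adjustment over all of them and a threshold of 0.05. Dimmer ones were read from the same fit without the filter. The brightest probe set stood for a gene in the lists. Named were all members, Prox1, the listed markers, up to 3 list genes of smallest unadjusted p where none passed, and the 5 closest profiles. Members and lists were chosen with earlier results of these data known. On data simulated for this comparison over 11656 probe sets, the fit recovered 51% of 2-fold and 98% of 4-fold changes. These shares depend on the simulation's settings and need not hold for the real arrays, where 12 of 11656 passed. There Csn3 (2.39-fold lower) and Hacd1 (2.33-fold lower) did not pass, at limma adjusted p = 0.0726 and 0.0885. Both were named for their likeness to Tubb2a, so they are not independent examples and do not stand in for a test of it. Alternatives were other scalings, pseudocounts, filters and variance models, the clone number as a block, omitting each clone in turn or probe sets with suffixes, and gene means. Fits without a clone assume that the lone array varies like the other group. Sequences are RefSeq's, of GRCm38.p6. The number of arrays limits the precision.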

Additional observations from a re-analysis of the deposited data

How the results depend on the processing

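Log2 changes of Tubb2a, both sets, and of all Tuba4a sets kept their sign under every alternative run. So did Tuba1a, Tubb3, Tubb6, Tubb5 1416256_a_at and Tubb4b 1438622_x_at and 1456078_x_at, while 6 other member sets changed sign when a clone was left out. Much of this was fixed in advance. Filters, variance models and the block do not alter a member's log2 change. Omitting a clone cannot turn the sign of a set whose groups did not overlap. Probe sets called over the array numbered 12, against 4 under quantile normalization, 8 under median centring, 0 without the filter (2300 at an unadjusted p under 0.05), 7 with the robust model, 6 without probe sets of suffix _s_at, _x_at or _a_at, and 42 to 1150 on leaving out a clone. With the clone number as a replicate block 110 were called. The labels do not say whether same-numbered clones were handled together. Over all probe sets tested, deviations of same-numbered clones from their group means correlated at -0.0091. A link within part of the probe sets was not tested. The count of lower tubulin sets was 5 of 11 tested, 9 of 17 without the filter, 2 of 4 without suffixed sets and 5 to 8 of 11 without a clone. The folding median was -0.12 under quantile normalization and -0.12 under median centring, -0.13 with the stricter filter, -0.14 over gene means and -0.18 to -0.031 without a clone. The median of binding and dynamics genes was -0.11 under median centring, 0.039 without the filter, 0.098 with the stricter filter, -0.11 without suffixed sets and -0.087 to 0.019 without a clone. Without a clone the modifying enzymes ran from -0.24 to 0.25 and the gamma-tubulin complex from -0.055 to 0.22, and list members called ranged from 0 to 1 for folding, autoregulation and the gamma-tubulin complex and 0 to 2 for binding and dynamics. On leaving out a clone, Tubg1 ran from -0.095 to 0.45, Ttc5 from -0.17 to 1.85 and Vbp1 from -0.0039 to 1.11, and the sign also turned for Prox1 without pcDNA clone 2 (0.012) or Prox1-labelled clone 2 (0.083). The causes were not tested. Signals near the Bacillus controls limit Tubb2b, Tubb3 and the dim sets of Tubb2a and Tubb4b.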
